A study of Drosophila melanogaster with 9 samples.

Results

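The comparison was between hearts of adult female Drosophila melanogaster fed a high sugar diet (HSD) and hearts of females kept on the normal diet (ND), measured by RNA sequencing. It used 6 of the 9 libraries of the series, 3 on HSD and 3 on ND, each named A, B or C, and all 8365 genes that passed a filter on low values, of 13915 genes above 0 and 16700 listed. All flies were w1118, a white-eyed laboratory strain, and food is the only difference between the groups that the labels give. Females mated after emergence for 2 days and were then kept without males, at 23 degrees by the labels, whereas the methods describe a warmer period before a move to 23 degrees. The ND held 1% agar, 7% dry inactivated yeast and 7% cornmeal, and the HSD was the same food with 30% sucrose. By the labels each of these 2 diets was given for 10 days, and the study describes the females as 10 days old. The other 3 libraries were of hearts on a high fat diet (HFD, 7 days of ND and then 3 days of ND with 30% coconut oil). They entered only the scaling between libraries, the estimate of the spread, the filter and, where stated, contrasts with HSD or ND. Each library pooled dissected hearts, 15 according to the labels, while the methods of the study give another number. According to the methods the samples of a diet were independent and collected on different days, with a tube of females for each diet and day. The letters A, B and C are not tied to those days.

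The heart of the adult fly is a contractile tube of cardiomyocytes flanked by pericardial nephrocytes, which filter the haemolymph. Fat body, the organ that stores glycogen and triglyceride and makes yolk and storage proteins, lies close to it, as do oenocytes, the cells that elongate fatty acids for cuticular hydrocarbons. Dietary sucrose is split into glucose and fructose, which feed glycolysis, glycogen and lipid synthesis, and a branch of glycolysis makes serine and glycine. Serine gives its carbon to folate, and folate carries it to purine synthesis and to the methionine cycle, which makes S-adenosylmethionine (SAM), the donor of methyl groups.

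Between 69543232 and 90069213 reads per library fell on genes, with the lowest and the highest total both on HSD. Levels are in RPKM (reads on a gene divided by its length and by the size of the library), rescaled between libraries by factors of 0.94 to 1.09 and called scaled RPKM here. Values are always listed for libraries A, B and C in that order. Libraries of the same diet correlated at 0.988 to 0.993 on ND and 0.987 to 0.994 on HSD across genes, and libraries of different diets at 0.972 to 0.990. These are correlations across genes, which are not independent replicates. The markers of the heart were present in every library. The summed level of 9 cardiomyocyte markers was 1212, 1224 and 974 scaled RPKM on ND and 1093, 1428 and 1567 on HSD, and the 10 nephrocyte markers summed to 781, 694 and 683 on ND and 707, 514 and 498 on HSD. Both sets overlapped between the diets. Markers of neurons summed to 6.00 to 6.58 on ND and 5.94 to 6.72 on HSD, so brain or nerve RNA was near the floor in both. ND library C stood apart in eggshell RNA: 14 follicle cell and eggshell markers summed to 63.1, 139 and 1569 on ND and to 6.48, 26.4 and 83.3 on HSD.

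A gene was called when its adjusted p was below 0.05 (limma with Benjamini-Hochberg adjustment over all genes tested) and its change was at least 1.5-fold on the log2(scaled RPKM + 0.5) scale. By that rule 276 of 8365 genes changed on HSD, which is 3.3% of the genes tested. Of these, 62 rose (0.741%) and 214 fell (2.56%), and the 3 HSD libraries did not overlap the 3 ND libraries for any of the 276, where 29.2% of all genes tested did not overlap. Without a fold limit the adjusted p passed for 232 genes upward (2.77%) and 327 downward (3.91%). The typical change was moderate. The median fold was 1.66 for genes that rose and 1.83 for genes that fell, and 11 called genes passed 4-fold, 9 of them lower and 2 higher. Most called genes coded for protein, 57 of those that rose and 204 of those that fell. In 25 of them another transcript covers at least 25% of the exon length, and 1 row whose label was not unique is not named. Of the 276, 95 belonged to 1 or more of 42 gene lists of pathways and families, and 181 to none. The number of calls depended on single libraries: it was 106 without ND C, 109 without HSD B, 128 without ND A and 174 without HSD C, against 289 without HSD A and 292 without ND B. All 276 kept their direction in each of the 9 fits that left out 1 library, and 92 of them (15 higher and 77 lower) were called in every such fit.

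**Figure D1:**
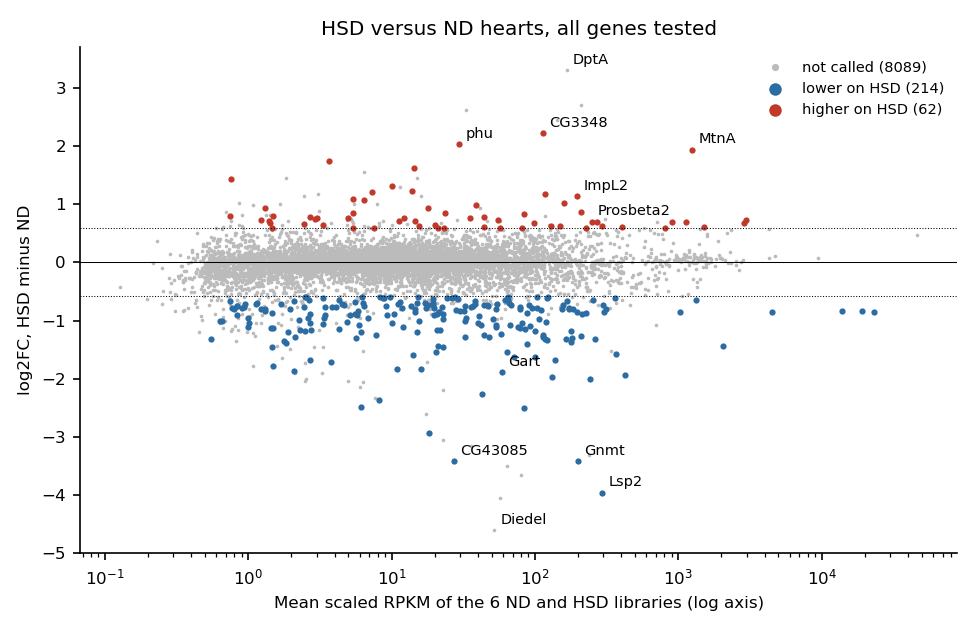
Each point is 1 of the 8365 genes tested, with its mean scaled RPKM over the ND and HSD libraries on the x axis (log axis) and its log2 fold change, HSD minus ND, on the y axis, with called genes in colour. The 214 genes that fell outnumber the 62 that rose and reach further from 0, to -3.96 for Lsp2 against 2.22 for CG3348.

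Several of the genes that fell most were metabolic enzymes, and their levels on ND ran from 2.91 scaled RPKM (lncRNA:CR44756) to 947 (Lsp2). Among called genes the largest decrease was of Lsp2, a larval serum protein that stores amino acids in fat body. Lsp2 was at 947, 327 and 347 scaled RPKM on ND and at 9.77, 22.1 and 122 on HSD (log2 fold change -3.96, SE 0.89, adjusted p = 0.035 by limma). The libraries did not overlap, but HSD C lay closest to ND, and the call was lost without any one of ND A, ND B, ND C, HSD A, HSD B or HFD B, with the log2 fold change between -4.96 and -3.18. An antisense transcript covers 84.6% of its exons, and whether the counting used strand is not stated.

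CG43085 combined a large decrease with little spread. This protein-coding gene on chromosome 3L (BDGP6 17645486 to 17646737, minus strand) was at 38.4, 52.8 and 59.5 scaled RPKM on ND and at 4.36, 3.93 and 4.25 on HSD, a 10.7-fold difference (log2 fold change -3.42, SE 0.15, adjusted p = 2.3e-05). Between 357 and 459 reads remained on it in the HSD libraries, against 3332 to 5331 on ND. It was called in all 9 fits with 1 library left out.

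Gnmt, which codes for glycine N-methyltransferase, the enzyme that uses SAM to methylate glycine, fell by 3.42 on the log2 scale (SE 0.49, adjusted p = 0.0062). Its levels were 573, 192 and 331 scaled RPKM on ND and 21.4, 22.5 and 59.5 on HSD, so the lowest ND library was still above the highest HSD library. CG10621, a homocysteine methyltransferase gene on chromosome 2L, was tighter, at 220, 198 and 211 on ND and 45.5, 51.0 and 64.1 on HSD (log2 fold change -1.97, SE 0.13, adjusted p = 0.00018). Both calls held without any one library.

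Sodh1, a sorbitol dehydrogenase that turns sorbitol into fructose, stood at 441, 329 and 396 scaled RPKM on ND and at 134, 60.9 and 106 on HSD (log2 fold change -2.01, SE 0.28, adjusted p = 0.006). Its next neighbour on the plus strand of chromosome 3R, CG1979, also fell. In the BDGP6 annotation Sodh1 runs from 7052335 to 7054541 and CG1979 from 7054586 to 7058671. CG1979 was at 12.7, 16.6 and 12.1 on ND and 3.54, 1.32 and 2.34 on HSD (log2 fold change -2.36, SE 0.26, adjusted p = 0.0025), and HSD B was the lowest library for both genes. Whether reads running past the end of Sodh1 contribute to CG1979 was not tested.

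Tsf1, a transferrin that carries iron in the haemolymph, was at 785, 579 and 640 scaled RPKM on ND and at 233, 109 and 201 on HSD (log2 fold change -1.94, SE 0.39, adjusted p = 0.025). Its call was lost without ND A, ND C, HSD B or HSD C, with the log2 fold change between -2.16 and -1.61. CG3699 and CG10962, which code for proteins of the short-chain dehydrogenase family, had log2 fold changes of -2.50 and -1.84 (adjusted p = 0.0051 and 0.00081). Among genes of less certain role, CG10814 fell by 2.93, CG43134 by 2.49 and CG15553 by 1.83, and the noncoding lncRNA:CR44756 fell by 1.86. The calls of CG3699, CG10962, CG15553 and lncRNA:CR44756 held in all 9 fits. That of CG43134 was lost without HSD B, and that of CG10814 without ND A, ND C or HSD B, where its log2 fold change over the 9 fits lay between -3.32 and -2.67.

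The increases were fewer and mostly smaller, led by a gene with little spread. CG3348, a short gene on chromosome 3R (BDGP6 27291535 to 27292209, minus strand), was at 40.9, 46.8 and 33.1 scaled RPKM on ND and at 176, 196 and 192 on HSD, which is 4.66-fold higher (log2 fold change 2.22, SE 0.12, adjusted p = 0.0001). Its level on HFD was between the other diets, at 62.6, 73.8 and 69.9, and HSD was above HFD by 1.44 on the log2 scale (adjusted p = 0.00057). CG15201, on the X chromosome, also had little spread, at 70.5, 74.9 and 68.0 on ND and 166, 170 and 151 on HSD (log2 fold change 1.18, SE 0.07, adjusted p = 0.00016). Unlike CG3348 it was lower on HFD than on ND, at 47.5, 47.6 and 44.5 (log2 fold change -0.61, adjusted p = 0.005 by limma). Nadk1a, an NAD kinase, which makes NADP from NAD, was at 107, 107 and 102 on ND and 202, 235 and 206 on HSD (log2 fold change 1.02, SE 0.09, adjusted p = 0.0009). None of these 3 genes lost its call without any one library.

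ImpL2, which codes for a secreted protein that binds insulin-like peptides and lowers insulin signalling, rose 2.21-fold. It was at 125, 117 and 125 scaled RPKM on ND and at 268, 290 and 256 on HSD (log2 fold change 1.14, SE 0.14, adjusted p = 0.0041), and its call held in all 9 fits. CG46460 overlaps 61.9% of its exons, so part of the reads may belong to that gene. MtnA, a metallothionein that binds copper and other metals, was at 469, 328 and 769 on ND and 2919, 1494 and 1529 on HSD (log2 fold change 1.94, SE 0.36, adjusted p = 0.018), with HSD A the highest library. Its call was lost without ND A or HSD B, and the log2 fold change lay between 1.62 and 2.26. The alkaline phosphatase gene phu was at 13.9, 4.16 and 21.0 on ND and 45.4, 56.6 and 37.4 on HSD (log2 fold change 2.04, SE 0.48, adjusted p = 0.04). The call of phu held without ND B or ND C and was lost without any other of the 9 libraries, with the log2 fold change between 1.40 and 2.50.

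The other named increases came from small or little-known genes. The protease-like CG5246 was near the floor on ND (0.152, 0.0961 and 0.270 scaled RPKM, with as few as 8 reads) and at 1.77, 1.34 and 0.883 on HSD, a log2 fold change of 1.43. On HFD it was at 0.0875, 0.446 and 0.236, so it passed the filter of 0.5 RPKM only through its HSD libraries. Its place among the increases was thus favoured by the filter. The paired fibrinogen-domain genes CG30280 and CG30281 rose by 1.31 and 1.22 on the log2 scale, CG43175 by 1.63, CG43448 by 1.09 and lncRNA:CR45402 by 1.21. These 6 calls each depended on 1 or more libraries. CG5246 lost its call without ND A or HSD B, CG30280 without ND A, ND B, ND C or HSD B, and CG30281 without ND A, ND C, HSD A or HSD B. CG43175 lost it in 6 of 9 fits and CG43448 in 6 of 9, while lncRNA:CR45402 lost it only without ND C. Over all of these fits their log2 fold changes ranged from 0.93 to 2.09.

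**Figure D2:**
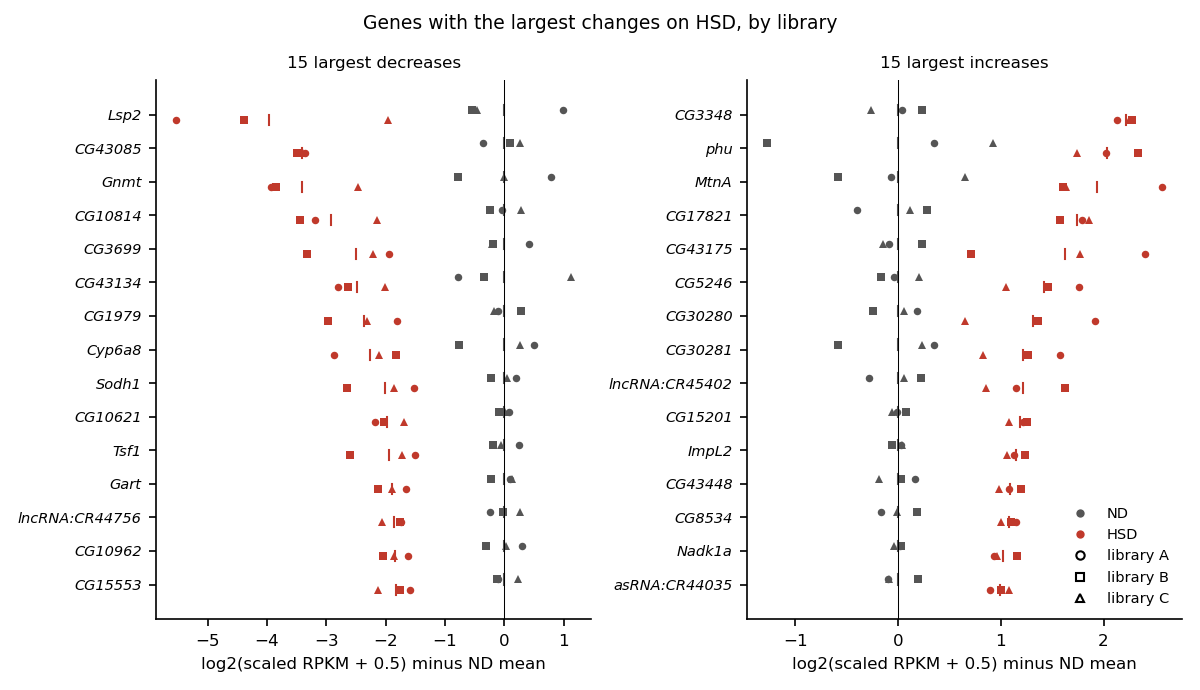
The 15 largest decreases (left) and increases (right) among called genes, with log2(scaled RPKM + 0.5) minus the mean of the ND libraries on the x axis, 1 point per library, diets by colour, letters by marker and short bars at the group means. CG43085 (38.4 to 59.5 on ND, 3.93 to 4.36 on HSD) and CG3348 (33.1 to 46.8 on ND, 176 to 196 on HSD) show wide gaps and tight groups, whereas the HSD points of Lsp2 spread over levels of 9.77 to 122.

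Genes of serine and glycine synthesis and of the folate cycle were lower as a group. Of 10 serine and glycine genes, 5 fell and 0 rose, all 10 had a log2 fold change below 0, and their median was -0.71 against 0.00 over all genes tested. In 9 of the 10 every HSD library was below every ND library, where 14.3% of all genes tested showed that order. Of 9 folate genes, 7 fell and 0 rose, with a median of -1.28. The lists share members: Shmt is on both, and Gart and CG11089 are on the folate list and on that of purine synthesis below. Fewer serine and glycine genes were called without some libraries: 2 without HSD B and 3 without ND C, against 7 without HSD A. The folate count stayed between 5 and 7 in all 9 fits.

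The 3 enzymes that make serine from a glycolytic intermediate all fell. CG6287, which codes for phosphoglycerate dehydrogenase and opens the branch, was at 339, 299 and 298 scaled RPKM on ND and at 223, 185 and 189 on HSD (log2 fold change -0.65, SE 0.10, adjusted p = 0.01). CG11899, the phosphoserine aminotransferase, was at 205, 184 and 200 against 134, 104 and 102 (log2 fold change -0.80), and aay, the phosphoserine phosphatase that ends the branch, at 420, 419 and 364 against 225, 238 and 228 (log2 fold change -0.80, adjusted p = 0.0046). For all 3 the diets were separated with a wide gap relative to the spread. The call of aay held in all 9 fits, that of CG6287 in 8 and that of CG11899 in 7. Gcat and Tdh, which turn threonine into glycine, had log2 fold changes of -0.65 (adjusted p = 0.057) and -0.76 (adjusted p = 0.17) and were named after their values were seen.

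Shmt, serine hydroxymethyltransferase, moves the carbon of serine onto folate and yields glycine. It lay at 174, 149 and 159 scaled RPKM on ND and at 79.8, 53.0 and 66.9 on HSD (log2 fold change -1.28, SE 0.17, adjusted p = 0.0051). CG3999, the glycine decarboxylase that splits glycine and gives a second carbon to folate, was at 19.8, 14.8 and 14.8 on ND and 9.70, 5.37 and 7.33 on HSD (log2 fold change -1.11, SE 0.20, adjusted p = 0.017). HSD A was the library nearest to ND for both. Shmt was called in all 9 fits and CG3999 in 5, with a log2 fold change between -1.31 and -0.91 (calls lost without ND A, ND C, HSD B or HSD C).

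Downstream in the folate cycle, pug, whose trifunctional enzyme interconverts the carbon-carrying forms of folate in the cytosol, was at 258, 211 and 232 scaled RPKM on ND and at 121, 81.3 and 81.7 on HSD (log2 fold change -1.32, SE 0.18, adjusted p = 0.0057). Nmdmc, its mitochondrial counterpart, was at 47.6, 39.2 and 42.0 on ND and 31.8, 16.0 and 18.3 on HSD (log2 fold change -1.01, SE 0.24, adjusted p = 0.044), and that call was kept in only 2 of 9 fits. Mthfs fell by 0.72 (SE 0.18, adjusted p = 0.05 after rounding, kept in 2 of 9 fits). CG10184 fell by 1.43 (SE 0.16, adjusted p = 0.0028). It is counted on the folate list although it is of the threonine aldolase family, which yields glycine, and is no enzyme of the folate cycle. HSD A was the highest HSD library for 8 of the 9 folate genes and 9 of the 10 serine and glycine genes, against 3316 of 8365 over all genes tested.

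The methionine cycle showed a narrower change: 4 of 12 genes fell, 0 rose and the median was -0.36. Apart from Gnmt and CG10621, Sardh, the sarcosine dehydrogenase that returns the methyl group from the product of Gnmt to folate, was at 8.37, 5.09 and 4.69 scaled RPKM on ND and at 1.23, 1.17 and 1.97 on HSD (log2 fold change -1.72, SE 0.35, adjusted p = 0.024). Ahcy, which removes the S-adenosylhomocysteine left by methylation, was at 68.3, 49.6 and 57.0 against 40.2, 32.0 and 32.3 (log2 fold change -0.73, SE 0.13, adjusted p = 0.016). Neither gene overlapped between diets. Sardh lost its call without ND A, ND C, HSD A or HSD B and Ahcy in 3 of the 9 fits, and the list count was 2 without ND C or HSD B. The other 8 genes of the list did not pass.

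De novo purine synthesis builds the purine ring stepwise on a phosphorylated ribose, taking glycine and folate-bound carbon into the ring. Of its 11 genes, 5 fell and 0 rose, with a median log2 fold change of -0.79. Gart and CG11089, counted here, were also counted among the folate genes. The count was 3 without ND C or HSD B, 4 without ND A and 7 without HSD A. The 5 genes covered the supply of ribose (Prps), the committed step (Prat2), ring assembly (Gart and Pfas) and its closure (CG11089).

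Gart, a trifunctional enzyme of ring assembly on chromosome 2L (BDGP6 7014623 to 7023898, minus strand), changed most. It was at 97.8, 78.8 and 101 scaled RPKM on ND and at 28.8, 20.8 and 24.3 on HSD (log2 fold change -1.89, SE 0.13, adjusted p = 0.00023), from 28916 to 36294 reads on ND and 7558 to 12178 on HSD. CG11089, whose product carries out the last folate-dependent step and closes the ring, was at 158, 131 and 163 on ND and 60.1, 45.1 and 41.8 on HSD (log2 fold change -1.62, SE 0.14, adjusted p = 0.0009). Both genes were called in all 9 fits, and HSD A was again the HSD library closest to ND.

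Prps, which makes phosphoribosyl pyrophosphate, was at 156, 160 and 188 scaled RPKM on ND and at 83.4, 56.3 and 62.8 on HSD (log2 fold change -1.32, adjusted p = 0.0056). Prat2, the amidotransferase that commits the ribose to purines, was at 179, 134 and 169 against 91.6, 58.7 and 55.6 (log2 fold change -1.25, adjusted p = 0.01), and Pfas at 58.6, 46.6 and 54.1 against 35.5, 24.1 and 24.7 (log2 fold change -0.92, adjusted p = 0.014). No library of one diet overlapped the other for any of these. Prps was called in all 9 fits, Prat2 in 7 and Pfas in 6.

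Purine breakdown was also lower, in 2 of 5 genes tested. CG16758, a purine nucleoside phosphorylase, was at 289, 232 and 248 scaled RPKM on ND and at 134, 90.9 and 90.4 on HSD (log2 fold change -1.30, adjusted p = 0.0051). ry, xanthine dehydrogenase, which makes urate, was at 15.7, 12.2 and 13.3 against 6.86, 5.72 and 6.53 (log2 fold change -1.05, adjusted p = 0.0042), and both calls held in every fit. Of 6 pyrimidine genes, r rose and su(r) and pyd3 fell. The gene r, whose product starts pyrimidine synthesis, was at 2.20, 1.54 and 1.63 on ND and 3.24, 3.14 and 2.89 on HSD (log2 fold change 0.66, adjusted p = 0.032, called in 4 of 9 fits). su(r) and pyd3, which act in pyrimidine breakdown rather than synthesis, fell by 0.77 and 0.75 on the log2 scale (adjusted p = 0.029 and 0.0049), pyd3 in all 9 fits and su(r) in 5.

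**Figure D3:**
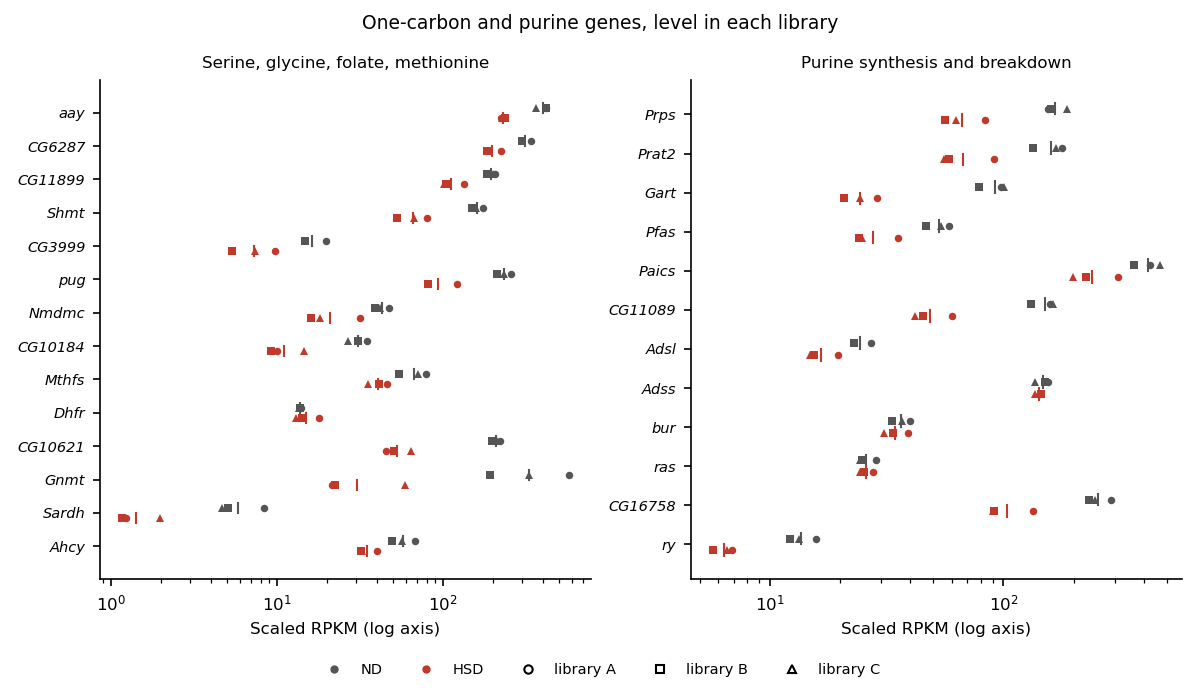
Scaled RPKM (log axis) of genes of serine, glycine, folate and methionine metabolism (left) and of purine synthesis and breakdown (right), called or not, with 1 point per library, diets by colour, letters by marker and short bars at the geometric means. The HSD points of the called genes lie below their ND points, and HSD A is the highest HSD point for Gart (28.8) and Shmt (79.8).

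Genes listed under breakdown of other amino acids were lower too. Of 11 genes for lysine, branched-chain and other amino acids 6 fell and 0 rose, with a median of -0.85, and between 6 and 7 were called in each of the 9 fits. Argl, argininosuccinate lyase, is on this list although it forms arginine rather than breaking it down. It was at 127, 86.7 and 110 scaled RPKM on ND and at 42.4, 27.3 and 34.7 on HSD (log2 fold change -1.62, SE 0.20, adjusted p = 0.0042). Oat, ornithine aminotransferase, was at 106, 82.9 and 85.5 against 47.2, 41.5 and 40.8 (log2 fold change -1.07, SE 0.10, adjusted p = 0.0014). The groups were apart for both genes.

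The aspartate aminotransferases moved alike: Got1 (cytosolic) was at 292, 263 and 282 scaled RPKM on ND and 152, 138 and 162 on HSD, and Got2 (mitochondrial) at 425, 355 and 389 against 231, 192 and 227. Their log2 fold changes were -0.89 (SE 0.08, adjusted p = 0.0013) and -0.85 (SE 0.11, adjusted p = 0.0049). CG3902, an acyl-CoA dehydrogenase of the branched-chain route, fell by 1.11 and CG9547, glutaryl-CoA dehydrogenase of the lysine route, by 0.98. All 6 were called in every fit. Of the 7 genes of phenylalanine and tyrosine breakdown 3 fell, among them Hn, phenylalanine hydroxylase, at 269, 199 and 239 on ND and 144, 142 and 118 on HSD (log2 fold change -0.80, adjusted p = 0.01) and Hpd, a dioxygenase further along the pathway, with a log2 fold change of -0.73 (adjusted p = 0.029). None of the 3 was called without ND C.

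Genes that handle sugars were lower or not called, and no gene of the sugar lists rose. Of 7 maltases and amylases tested 5 fell, and the median was -1.18. All 7 had every HSD library below every ND library, where 14.3% of all genes tested showed that order. The other 7 on that list were below the filter or at 0. Amy-d and Amy-p, which code for starch-digesting amylases, were at 42.0, 29.8 and 30.0 scaled RPKM on ND and 10.9, 11.2 and 13.5 on HSD, and at 5.06, 3.95 and 3.97 against 0.665, 0.858 and 1.63. They are near-identical copies, so the split of reads between them is uncertain. Their log2 fold changes were -1.46 (SE 0.16, adjusted p = 0.0026) and -1.68 (SE 0.31, adjusted p = 0.017).

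Mal-B2, an alpha-glucosidase, was at 249, 202 and 292 scaled RPKM on ND and 137, 105 and 86.4 on HSD (log2 fold change -1.18, SE 0.23, adjusted p = 0.021). The glucosidase tobi, known as a target of insulin and adipokinetic hormone, was at 539, 244 and 366 against 152, 124 and 162 (log2 fold change -1.32, SE 0.31, adjusted p = 0.039), and Mal-B1 was at 0.903, 1.21 and 1.62 against 0.462, 0.485 and 0.311. For all of these the 3 HSD libraries lay below the ND libraries. The count of 5 was not stable: it was 1 without ND C or HSD B and 2 without ND A or HSD C. Amy-d kept its call in all 9 fits.

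The Leloir pathway turns galactose into glucose phosphate. CG32444, an aldose 1-epimerase, which opens the pathway, was at 307, 222 and 240 scaled RPKM on ND and at 132, 75.5 and 95.7 on HSD (log2 fold change -1.37, SE 0.23, adjusted p = 0.014). Galk, galactokinase, was at 175, 136 and 167 against 104, 66.6 and 67.1 (log2 fold change -1.03, SE 0.20, adjusted p = 0.022). Galt, the next enzyme, did not pass (150, 105 and 115 against 144, 92.7 and 89.4, log2 fold change -0.20, SE 0.22, adjusted p = 0.69), and its libraries overlapped. The list had 2 of 7 lower and a median of -0.58, with 0 called without ND A, ND C or HSD B and 5 without HSD A. Parts of the exons of CG32444 (28.6%) and Galk (25.1%) are shared with other transcripts.

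Glycogen, trehalose and hexokinase genes gave 2 of 10 lower, with a median of -0.20. Glys, glycogen synthase, was at 86.3, 71.8 and 79.6 scaled RPKM on ND and 59.7, 44.7 and 46.8 on HSD (log2 fold change -0.65, adjusted p = 0.019), and Hex-C, a hexokinase, at 133, 108 and 132 against 82.6, 52.5 and 44.7 (log2 fold change -1.09, adjusted p = 0.041). Neither was called without ND A, ND C, HSD B or HSD C. Of 9 sugar transporter genes 3 fell, and 1 was called without ND A, ND C, HSD B or HSD C. CG8249, a transporter of the sugar porter family, was at 9.70, 7.50 and 8.89 against 4.25, 3.07 and 3.34 (log2 fold change -1.19, SE 0.14, adjusted p = 0.0031) and was called in every fit, while CG6484 (log2 fold change -1.04) and CG3168 (-0.60) were each called in 4.

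Glycolysis itself gave 0 calls of 13 genes with the 1.5-fold limit, although 11 of 13 had a log2 fold change below 0, 10 had an unadjusted p under 0.05 and the median was -0.30. Tpi, triose phosphate isomerase, had the largest size, at 323, 255 and 267 scaled RPKM on ND and 209, 190 and 199 on HSD (log2 fold change -0.49, SE 0.11, adjusted p = 0.037 by limma), below the fold limit. The pentose phosphate list also had 0 of 9 called, 3 at an unadjusted p under 0.05 and a median of 0.03, and voom called 0 in both lists. Its Men, malic enzyme, which makes NADPH, was at 895, 818 and 808 against 577, 559 and 601 (log2 fold change -0.54, adjusted p = 0.043), again under 1.5-fold. Of 6 polyol genes Sodh1 and Miox, the inositol oxygenase, fell. Miox was at 1374, 1309 and 1285 on ND and 792, 696 and 700 on HSD (log2 fold change -0.86, adjusted p = 0.027), called in 4 of 9 fits.

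Lipid genes did not move in 1 direction. Of 15 genes for fatty acid and triglyceride synthesis 3 fell and the median was -0.15. The acyltransferase mino, which starts glycerolipid synthesis, was at 122, 90.9 and 114 scaled RPKM on ND and 56.8, 53.4 and 47.2 on HSD (log2 fold change -1.04, SE 0.12, adjusted p = 0.0028) and was called in every fit, although 42.4% of its exons overlap another gene. Agpat2, which acts one step later, was at 23.5, 16.5 and 23.7 against 12.0, 7.64 and 7.49 (log2 fold change -1.20, adjusted p = 0.038), and AcCoAS, acetyl-CoA synthetase, fell by 0.61. Both of these were lost without ND A, ND C, HSD B or HSD C, where 1 gene of the list was called.

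The triglyceride lipase bmm (brummer) was at 120, 107 and 113 scaled RPKM on ND and at 76.9, 69.9 and 57.6 on HSD (log2 fold change -0.73, SE 0.10, adjusted p = 0.006), the 1 called gene of 8 for lipid droplets and lipolysis, and was called in all fits. In fatty acid oxidation, 1 of 11 genes rose and 1 fell. CROT, which hands medium-chain acyl groups from peroxisomes to carnitine, was at 17.7, 16.4 and 16.3 on ND and 31.4, 30.4 and 29.9 on HSD (log2 fold change 0.85, SE 0.06, adjusted p = 0.00023, called in all fits). The gene that fell was CG3902, given above.

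Fatty acid elongases, which lengthen long-chain acyl-CoA by adding carbon pairs, included the main lipid genes that rose. This family was listed after its values had been seen. Of 16 elongase-family genes tested, 5 rose and 0 fell, 13 had a log2 fold change above 0, and the median was 0.54 against 0.00 over all genes. CG8534 was at 3.42, 4.52 and 3.87 scaled RPKM on ND and at 9.29, 8.96 and 8.34 on HSD (log2 fold change 1.08, SE 0.14, adjusted p = 0.0044) and was called in all fits. Its exons overlap by 70.4% with asRNA:CR44035, which rose as well (23.8, 29.3 and 24.0 against 48.0, 51.8 and 54.5), so their reads may not be separate.

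The abundant elongases shared one layout, with ND B closest to HSD. CG16904 was at 1838, 2582 and 2214 scaled RPKM on ND and 3393, 3510 and 3618 on HSD (log2 fold change 0.68, adjusted p = 0.034), CG30008 at 1782, 2754 and 2259 against 3320, 3983 and 3828 (0.73, adjusted p = 0.047), and CG9458 at 595, 819 and 670 against 1038, 1134 and 1159 (0.69, adjusted p = 0.039). CG17821, at low level, was at 0.949, 1.82 and 1.56 against 6.08, 5.19 and 6.41 (log2 fold change 1.74, SE 0.40, adjusted p = 0.038). The elongase count was 6 without ND B and 1 without any other single library of ND or HSD. Sc2, the enoyl-CoA reductase that completes each elongation cycle, rose by 0.59 on the log2 scale (562, 756 and 626 against 912, 998 and 1004, adjusted p = 0.027, called in 5 of 9 fits), and the acyl-CoA reductase CG17562 by 0.70 (adjusted p = 0.026, called in 4). Sc2 was picked out after its values were seen.

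Oenocyte markers were examined beside the elongases. Their summed level was 37630, 51740 and 42560 scaled RPKM on ND and 54130, 64710 and 59870 on HSD, so all HSD libraries were above all ND libraries. Without Cyp4g1, the oenocyte P450 that makes up most of this sum, it was 4360, 5310 and 5230 against 5681, 5610 and 5722. Of the 9 markers 2 were called higher, Desat2 and CG17821, and the latter is also one of the 5 elongases that rose. One marker, bgm, had every HSD library below ND without passing (87.0, 74.0 and 74.4 against 60.7, 44.3 and 32.3, log2 fold change -0.81, adjusted p = 0.099), and Cyp4g1 itself was not called (log2 fold change 0.48, SE 0.20, adjusted p = 0.22). In such whole-tissue libraries more cells of a type and more RNA per cell cannot be told apart, and the part of oenocyte content in the elongase values was not tested.

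Proteasome genes rose together, most of them by less than 1.5-fold. The proteasome degrades ubiquitin-tagged proteins through a core of alpha and beta subunits capped by a regulatory particle of Rpt ATPases and Rpn subunits. All 34 genes tested had a log2 fold change above 0, from 0.20 to 0.70 with a median of 0.47, and in 33 of them every HSD library was above every ND library, an order found in 14.9% of all genes tested. The adjusted p passed for 31 of 34 (2.77% of all genes passed upward), but only 5 also reached 1.5-fold. Of the 50 symbols matched, 9 were below the filter and 7 were at 0, and Prosap, which is no proteasome gene, was left out.

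Prosbeta2, a catalytic core subunit on chromosome 3L, had the largest change: 177, 212 and 180 scaled RPKM on ND and 311, 315 and 296 on HSD (log2 fold change 0.70, SE 0.09, adjusted p = 0.0045), called in every fit. Prosbeta6 was at 210, 254 and 225 against 347, 358 and 355 (0.63, adjusted p = 0.0093) and Prosbeta4 at 159, 208 and 175 against 266, 272 and 281 (0.60, adjusted p = 0.016). Outside the core, Pomp, the chaperone that matures it, was at 94.0, 114 and 98.2 against 156, 158 and 159 (0.63, adjusted p = 0.01), and PI31, a proteasome regulator, at 61.0, 69.5 and 64.6 against 98.9, 98.4 and 95.8 (0.59, adjusted p = 0.0075). For these 5 genes the HSD libraries lay close together, while ND B was the highest ND library for all 34 genes (2899 of 8365 over all genes tested). The count of 5 was 11 without ND B, 3 without HSD B and 1 without ND A or ND C. Pomp shares 40% of its exon length with vari.

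**Figure D4:**
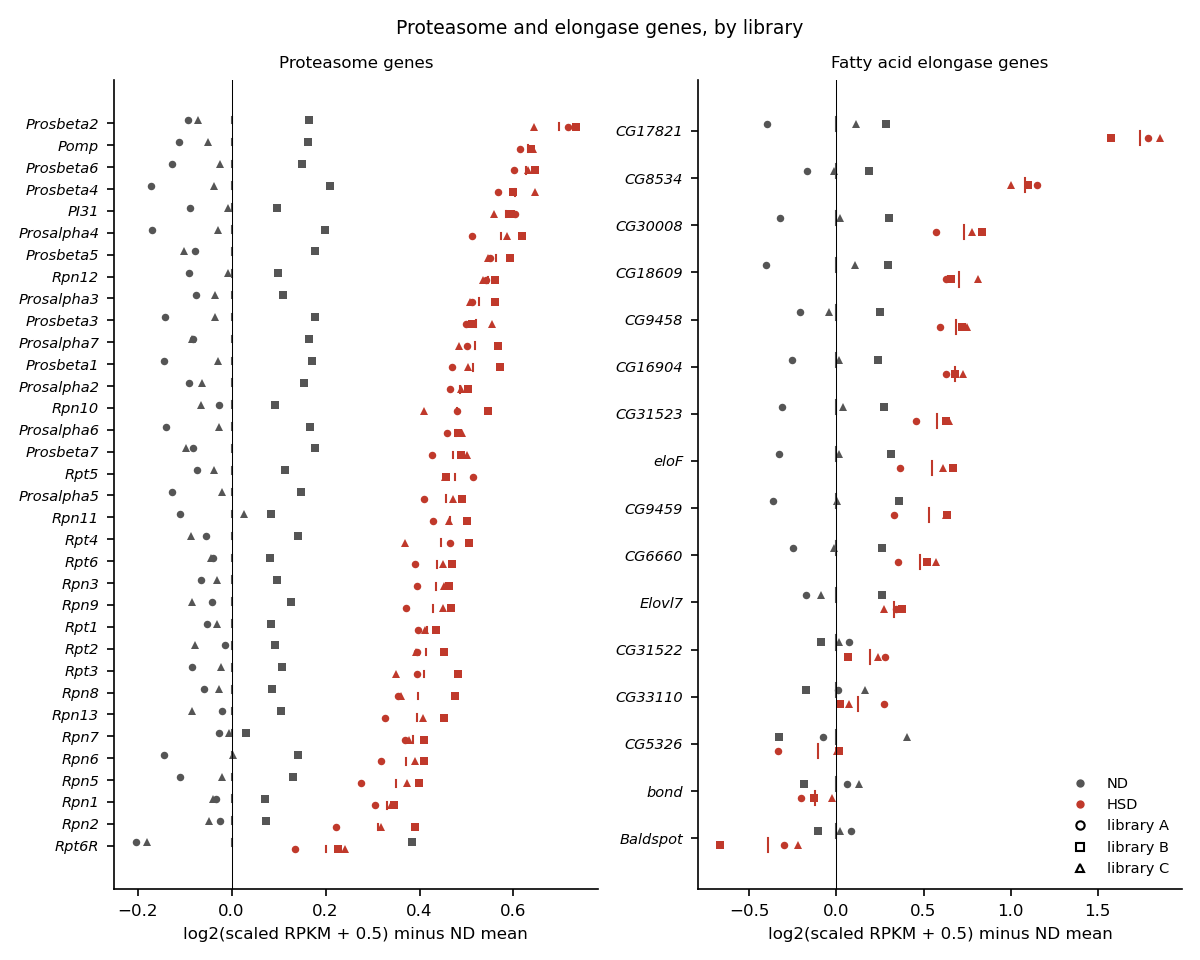
The 34 proteasome genes (left) and 16 elongase genes (right) tested, with log2(scaled RPKM + 0.5) minus the mean of the ND libraries on the x axis, 1 point per library, diets by colour, letters by marker and short bars at the group means. The HSD points are above all ND points in 33 of the 34 proteasome genes and in 10 of the 16 elongase genes, against 14.9% of all genes tested. ND B is the highest ND point for each proteasome gene.

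Other large machineries of protein synthesis and respiration gave no calls. None of 85 cytosolic ribosomal protein genes (median 0.05), 72 mitochondrial ribosomal protein genes (median 0.07), 68 genes of the respiratory chain and ATP synthase (median -0.01) and 32 aminoacyl-tRNA synthetase genes (median 0.10) was called by limma with the 1.5-fold limit. The voom fit called 0 in these lists too, and an unadjusted p under 0.05 was found for 0, 14, 2 and 7 of their genes. With no fold limit the adjusted p passed upward for 0, 4, 1 and 1 of them. Small shifts upward were common in part of them. A log2 fold change above 0 was found for 28 of 32 synthetase and 57 of 72 mitochondrial ribosomal genes. The same held for 68 of 85 cytosolic ribosomal and 30 of 68 respiratory genes, against 4225 of 8365 over all genes tested. Every HSD library was above every ND library in 14 synthetase, 19 mitochondrial ribosomal, 1 cytosolic ribosomal and 3 respiratory genes. That order was found in 14.9% of all genes tested. Cyt-c-p, cytochrome c, was the respiratory gene that passed, at 350, 304 and 291 scaled RPKM on ND and 467, 442 and 384 on HSD (log2 fold change 0.45, SE 0.10, adjusted p = 0.035). The 34 proteasome genes thus had a higher median than any of these 4 lists.

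Among hormones and secreted signals, the peptide genes CCHa2 and fit fell. CCHa2, which fat body and gut secrete and which acts on insulin-producing cells, was at 71.5, 75.4 and 73.2 scaled RPKM on ND and at 37.8, 28.9 and 35.0 on HSD (log2 fold change -1.11, SE 0.19, adjusted p = 0.015). The satiety signal fit (female-specific independent of transformer) was at 685, 481 and 494 against 139, 181 and 242 (log2 fold change -1.58, SE 0.27, adjusted p = 0.014). Neither was called without ND A, ND C or HSD B. Of 12 genes of the insulin and adipokinetic hormone pathway only ImpL2 was called, and the median was -0.03. Of 13 sugar-responsive factors and targets, trbl (tribbles) was the single call, at 27.9, 25.6 and 29.3 against 19.2, 15.0 and 11.6 (log2 fold change -0.86, adjusted p = 0.023, called in 5 fits). Mondo, the sugar sensor, was at 35.1, 34.7 and 35.6 against 29.5, 24.7 and 25.3 (log2 fold change -0.40, adjusted p = 0.055).

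Yolk protein genes were among the most abundant transcripts and fell. Yp1 was at 21270, 15290 and 17100 scaled RPKM on ND and 10730, 10520 and 8702 on HSD, Yp2 at 34860, 26440 and 27990 against 15890, 18280 and 14820, and Yp3 at 32060, 19680 and 22350 against 14420, 14510 and 11980. Their log2 fold changes were -0.83, -0.86 and -0.83, with adjusted p of 0.024, 0.03 and 0.041. The groups were apart, with ND A the highest. Yp1 and Yp2 were called in 5 of 9 fits and Yp3 in 1, and 54.3% of the exons of Yp1 overlap an antisense RNA.

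In all, 6 of 7 yolk and storage genes fell, with 0 left without ND C or HSD B, 1 without ND A and 2 without HSD C. Besides Lsp2 and the yolk genes these were CG2233 and Gip, neither of which is a yolk protein or a classical storage protein. CG2233 was at 6246, 5431 and 5806 against 3697, 3173 and 2828 (log2 fold change -0.86, adjusted p = 0.0099). Fat body markers, which include the yolk genes and Lsp2, were lower as well: the 11 markers summed to 92210, 64290 and 70780 on ND and 44070, 45820 and 37780 on HSD. All 8 markers tested had log2 fold changes below 0, with a median of -0.66, and 4 were called lower, Lsp2 and the 3 yolk genes. In 5 of the 8 every HSD library was below every ND library, against 14.3% of all genes tested. Without the 3 yolk genes the sum was 4027, 2884 and 3346 against 3029, 2504 and 2268, where the diets overlapped. The part of fat body content in the decreases of metabolic genes was not tested.

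A further set of 20 genes was taken from the study's text and supplementary tables, most of them chosen there on these libraries, so their count is not independent evidence. All 20 were tested and 17 were called. Of those not given above, CG34357 was at 3.29, 3.41 and 4.00 scaled RPKM on ND and 1.31, 1.62 and 1.93 on HSD (log2 fold change -0.95, adjusted p = 0.0041, called in all fits). GILT2, a thiol reductase, was at 142, 93.0 and 115 against 65.6, 54.6 and 38.7 (log2 fold change -1.15, adjusted p = 0.018), and CG3513 at 28.7, 21.2 and 23.2 against 13.0, 16.0 and 15.4 (-0.70, adjusted p = 0.016). GILT2 lost its call without ND A, ND C or HSD B, and CG3513 without ND A or ND C. Besides Galt, CG7997, an alpha-galactosidase, had a log2 fold change of -0.63 (adjusted p = 0.11) and the metalloprotease gene Invadolysin of 0.73 (27.0, 16.2 and 20.1 against 38.8, 43.9 and 24.4, adjusted p = 0.19).

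Detoxification genes were lower in part. Of 58 cytochrome P450 genes 11 fell and 1 rose, with a median of -0.23. Cyp6a8 was at 94.5, 38.9 and 80.2 scaled RPKM on ND and at 8.73, 18.4 and 15.1 on HSD (log2 fold change -2.27, SE 0.41, adjusted p = 0.016). Cyp6g1, known for its part in insecticide resistance, was at 195, 193 and 245 against 74.9, 70.9 and 51.9 (log2 fold change -1.68, SE 0.18, adjusted p = 0.0023). Cyp6w1 was at 223, 143 and 162 against 77.8, 62.0 and 67.0 (-1.33, adjusted p = 0.0051), and Cyp309a2 was at 2.65, 1.83 and 2.70 against 0.620, 0.399 and 0.626 (-1.46, adjusted p = 0.0026). These 4 genes were separated by diet in all libraries. The P450 that rose, Cyp12b2, was at 19.4, 16.6 and 18.6 against 31.5, 31.0 and 22.0 (0.60, adjusted p = 0.037), and was called only without HSD C or HFD C among the 9 fits. The number of P450 genes that fell was 3 without ND C, 4 without ND A, 5 without HSD B and 6 without HSD C.

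Of 26 glutathione S-transferase genes 4 fell, with a median of -0.23. GstD10 was at 3.44, 3.35 and 5.24 scaled RPKM on ND and 1.75, 1.35 and 1.38 on HSD (log2 fold change -1.16, adjusted p = 0.0048) and kept its call in every fit. The count was 1 without ND A, ND C or HSD B and 2 without HSD C. Of 16 UDP-glycosyltransferase genes 2 fell, among them Ugt35C1 at 69.2, 45.3 and 57.2 against 26.0, 27.4 and 26.2 (-1.07, adjusted p = 0.0044), and 1 was called without ND A, HSD B or HSD C. Of 17 antioxidant genes 3 fell: MsrA, methionine sulfoxide reductase (192, 85.7 and 108 against 36.7, 62.4 and 41.2, log2 fold change -1.40, adjusted p = 0.031), and the peroxiredoxins Prx6c (-0.81) and Prx6b (-0.76). None of the 3 was called without ND A, ND C or HSD B. The other antioxidant genes, such as the superoxide dismutases, were not called, and the median of the list was 0.00.

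Odorant-binding proteins, small carriers of hydrophobic molecules, of which several are made outside the antenna, had log2 fold changes below 0 in all 15 genes tested, and 4 fell. Obp99a was the most abundant of these, at 370, 246 and 276 scaled RPKM on ND and 158, 106 and 109 on HSD (log2 fold change -1.26, SE 0.22, adjusted p = 0.014). Obp83ef was at 50.9, 44.9 and 42.9 against 24.2, 29.8 and 28.1 (-0.75, SE 0.09, adjusted p = 0.0041) and was called in every fit. The other 2 were Obp83g (-1.06) and Obp73a (-0.77). The count was 1 without ND A, ND C or HSD B and 2 without HSD C.

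Antimicrobial peptide genes varied widely between the HSD libraries. None of 23 was called by limma (median 0.09) or by voom, a weighted fit on rebuilt reads, and 3 had an unadjusted p under 0.05. DptA, a diptericin, was at 2.94, 5.02 and 9.36 scaled RPKM on ND and 946, 5.05 and 34.1 on HSD (log2 fold change 3.31, SE 1.68, adjusted p = 0.32), and DptB at 19.0, 32.0 and 37.8 against 953, 40.5 and 172 (2.71, SE 1.16, adjusted p = 0.23). HSD A was the highest HSD library for 22 of the 23 genes, and without HSD A 2 of the 23 were called lower. The Turandot gene TotM was at 132, 484 and 705 on ND and 29.0, 27.0 and 56.3 on HSD (log2 fold change -3.31, SE 0.86, adjusted p = 0.054), and Diedel, an immune-modulating cytokine gene, at 31.8, 76.4 and 194 against 1.58, 2.24 and 5.35 (-4.61, SE 1.40, adjusted p = 0.09). Both were below ND in all HSD libraries without passing the threshold. None of 16 heat shock genes was called by limma or voom (median -0.25), with 0 at an unadjusted p under 0.05.

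**Figure D5:**
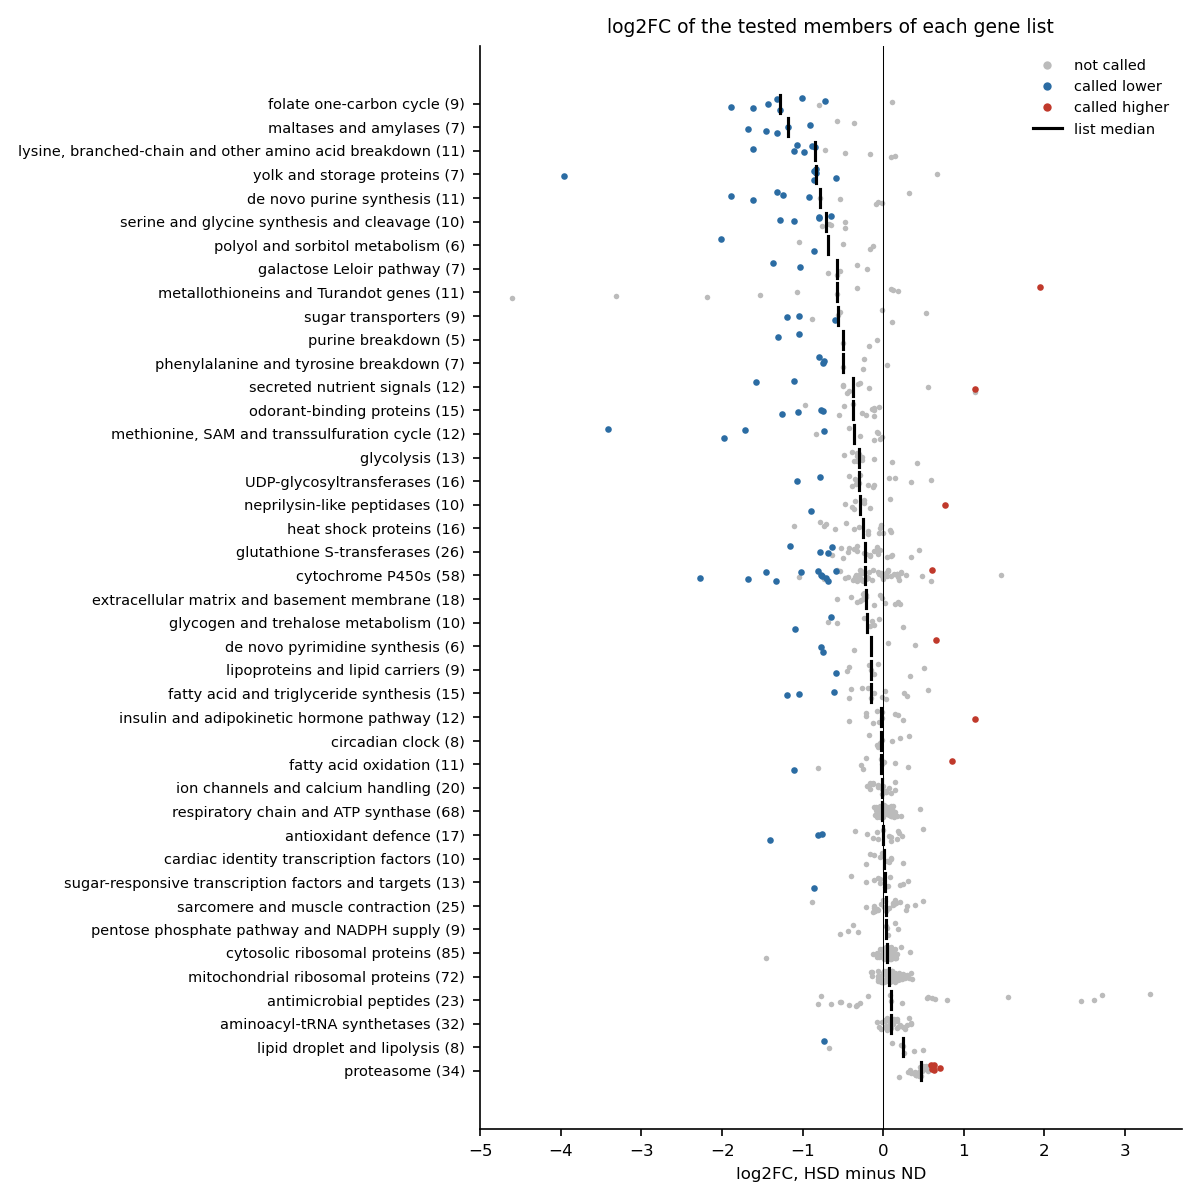
Log2 fold change, HSD minus ND, of every tested gene in the gene lists, 1 row per list with the number of genes tested, the median as a black bar and called genes in colour. The medians of the folate (-1.28), maltase (-1.18) and amino acid breakdown (-0.85) lists lie to the left of 0, that of the proteasome list (0.47) to the right, and that of the sarcomere list (0.03) near 0.

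The genes that define the heart as a muscle were not called. None of 25 sarcomere genes (median 0.03), 20 ion channel and calcium handling genes (median -0.01), 10 cardiac transcription factor genes (median 0.01), 18 genes of extracellular matrix (median -0.22) or 8 clock genes (median -0.03) passed by limma with or without the fold limit, or by voom with it. An unadjusted p under 0.05 was found for 1, 0, 0, 3 and 0 of their genes. The voom fit did not cover genes without rebuilt reads, among them Mlp84B, cac and tim. Act57B, a muscle actin, was at 674, 638 and 481 scaled RPKM on ND and 653, 900 and 978 on HSD (log2 fold change 0.49, SE 0.27, adjusted p = 0.35), and the calcium release channel gene RyR was at 12.5, 12.8 and 10.9 against 7.42, 11.7 and 14.1 (-0.16, SE 0.20, adjusted p = 0.73). In both, HSD A lay low and HSD C high, and the diets overlapped. HSD A was the lowest HSD library for 17 of the 20 channel genes and for 8 of the 10 transcription factor genes, against 3132 of 8365 over all genes.

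Hand, the transcription factor of cardiomyocytes and nephrocytes, was at 223, 280 and 246 scaled RPKM on ND and 235, 210 and 220 on HSD (log2 fold change -0.17, SE 0.20, adjusted p = 0.73), and svp, which marks the ostial cells, at 17.5, 19.1 and 18.9 against 23.8, 21.9 and 20.4 (0.24, SE 0.11, adjusted p = 0.25). At the standard errors of such genes, changes above 1.5-fold could be missed too: Act79B of the sarcomere list differed 1.85-fold (log2 fold change -0.89, SE 0.36, adjusted p = 0.21) and was not called. All 9 nephrocyte markers tested had log2 fold changes below 0 and 0 were called by limma or voom, with 2 at an unadjusted p under 0.05. Amnionless, part of the uptake receptor, was at 223, 166 and 172 against 148, 95.9 and 90.4 (-0.76, SE 0.20, adjusted p = 0.055). Of 10 neprilysin-like peptidase genes Nepl10 fell (14.8, 10.0 and 11.8 against 7.08, 5.82 and 5.91, log2 fold change -0.90, adjusted p = 0.012) and Nepl4 rose (10.5, 7.88 and 8.25 against 15.3, 16.9 and 13.9, 0.77, adjusted p = 0.025). Nepl10 lost its call without ND C or HSD B, and Nepl4 was called in 4 of 9 fits.

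Markers of other tissues differed in part. Gut enterocyte markers summed to 284, 262 and 259 scaled RPKM on ND and 190, 205 and 201 on HSD, and 11 haemocyte markers to 2475, 2526 and 2489 against 1731, 2162 and 2098, both without overlap. The haemocyte marker PPO1, a prophenoloxidase, was at 702, 689 and 710 against 409, 543 and 478 (log2 fold change -0.56, SE 0.13, adjusted p = 0.037), under the fold limit. No gut marker was called by limma or voom, with 2 of 5 at an unadjusted p under 0.05, and the part of gut tissue in the values of amylases and maltases was not tested. Of the 13 eggshell and follicle cell genes tested, all had log2 fold changes below 0 and 1 fell, the transcription factor gene tj (5.30, 4.14 and 5.50 against 2.76, 2.94 and 2.43, log2 fold change -0.77, adjusted p = 0.014, lost without ND A or ND C). The chorion gene Cp15 was at 13.9, 95.0 and 218 against 0.813, 2.96 and 13.7 and did not pass (-4.06, SE 1.09, adjusted p = 0.06). Of 15 germline genes 0 were called by limma or voom and 1 had an unadjusted p under 0.05, and their 17 listed markers summed to 26.6, 36.5 and 81.5 on ND against 22.9, 26.5 and 29.0 on HSD.

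The HFD libraries allowed a direct contrast of the rich diets, HSD minus HFD, for the same genes. It called 364 of 8365 genes (4.35%), 146 higher (1.75%) and 218 lower (2.61%) on HSD. The one-carbon and purine genes were lower on HSD than on HFD as well: 6 of 10 serine and glycine genes, 6 of 9 folate genes and 7 of 11 purine genes. These counts share Shmt, Gart and CG11089, so they are not separate results. Gart was lower than on HFD by a log2 fold change of -2.50 (adjusted p = 4.1e-05), CG11089 by -1.96 (adjusted p = 0.00029) and Shmt by -1.77 (adjusted p = 0.001). The contrast of HFD with ND called 160 genes (1.91%). It called 2 of 9 folate and 3 of 11 purine genes higher on HFD, against 39 of 8365 over all genes tested, and 0 of 10 serine and glycine genes. Gart was one of them (log2 fold change 0.61, adjusted p = 0.046 by limma), so its gap between the rich diets holds a rise on HFD too. The medians against ND were -0.71, -1.28 and -0.79 on HSD and 0.12, 0.34 and 0.32 on HFD for the 3 lists.

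The same contrast called 5 of 11 genes of amino acid breakdown, 4 of 7 maltases and amylases and 3 of 7 Leloir genes lower on HSD, and 3 of 34 proteasome and 6 of 16 elongase genes higher. The proteasome median against ND was 0.47 on HSD and 0.05 on HFD. For the elongases it was 0.54 on HSD and -0.09 on HFD. The contrast of HFD with ND called 2 of the 16 elongase genes lower, so the gap between the rich diets can hold a fall on HFD too. Other changes were not distinguished between the rich diets. CG43085 was at 5.66, 4.90 and 6.15 on HFD, and its contrast with HSD did not pass (log2 fold change -0.37, SE 0.15, adjusted p = 0.16). The contrasts of ImpL2 (0.41, adjusted p = 0.11), CCHa2 (0.22, adjusted p = 0.52), fit (0.69, adjusted p = 0.15) and Gnmt (1.73, adjusted p = 0.058) did not pass either, which does not show that the diets act alike. Yp2 was higher on HSD than on HFD by 1.11 (adjusted p = 0.0081) although it was lower than on ND.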

How the data were processed

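RNA of dissected hearts was sequenced in 9 libraries, 3 per diet, with a stranded total RNA kit and ribosomal depletion. According to the submitters' processing notes, the authors used FastQC 0.11.7, featureCounts 1.6.1 from Subread 1.6.1, DESeq2 1.20.0, edgeR 3.22.5 and R 3.5.1, with builds dm3 and dm6, and deposited 1 table of RPKM values (reads scaled to gene length and library size). Of the value cells 28.4% carried a decimal comma, read as a point. In 2316 rows (16.6% of those above 0) the values were shifted against the gene labels by a few rows and were realigned. Of the 1520 shifted rows above 0 in all libraries, 3.9% gave whole reads (within 0.05 reads) at the listed length and 95.5% at the realigned length. In 53 rows the label was not unique, and these were not named. Symbols were matched for 16614 rows. Library totals were rebuilt from the steps of the RPKM values.

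RPKM values were rescaled between libraries, those averaging 0.5 RPKM or more over the 9 libraries were kept, and log2(value + 0.5) was fitted over all 9 libraries with limma 3.58.1 in R 4.3.3 (trend in the variance prior, 6 residual degrees of freedom). Genes were called at an adjusted p under 0.05 and 1.5-fold. With 3 libraries per diet an exact two-sided permutation test could not go below 0.1, so it was not used. The scripts were tested on simulated data. Python 3.11.15, numpy 2.4.6, pandas 2.3.3 and matplotlib 3.10.9 were used for the rest. Members and gene lists were chosen with earlier results of these data known. The genes named were the 15 largest increases and decreases among called genes, up to 8 called members of each list (or the 2 largest where fewer than 2 were called) and 20 genes from the study's text and supplementary tables. Alternatives covered scaling, pseudocount, filter, libraries, variance prior, replicate block, threshold and labels, and a weighted fit (voom) on rebuilt reads. The elongase and acyl-CoA reductase families and the marker sums without single genes were chosen after seeing the data.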

Additional observations from a re-analysis of the deposited data

How the results depend on the processing

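Of 276 genes called, the number was 279 on RPKM as deposited (83 higher, 196 lower), 272 with quantile normalization (76 and 196), 297 and 240 with pseudocounts of 0.1 and 1, 249 with a mean of at least 2 RPKM, 258 with only the ND and HSD libraries, 271 with no trend in the variance prior and 285 with voom on rebuilt reads. Without the low filter 191 of 13915 genes were called, 41 of them higher. The added genes entered both the variance prior and the adjustment, and their separate effects were not tested. Without the fold limit 559 were called, 232 higher and 327 lower. Leaving out each library in turn gave between 106 and 297 calls, between 20 and 84 higher and between 86 and 233 lower. With the labels as listed in the table, before realignment, 5 named genes changed sign because their values then come from another row: the log2 fold change was 0.15 for CG43134, 0.12 for CG3999, 0.02 for Cyp4s3, 0.25 for GstE7 and 0.15 for tj.

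Whether libraries with the same letter were paired could not be settled from their data. Deviations were taken from a mean of 3 libraries per diet, so their correlations depend on each other and cannot exclude pairing. The correlation of same-letter deviations was 0.248 for A, -0.072 for B and 0.090 for C, and a fit with the replicate block called 282 genes, 63 higher and 219 lower. Library A correlated best with its own letter from both sides and ND C with HSD C, whereas HSD C correlated best with ND B (0.231) and neither B library with the other. With 3 libraries per diet, calls near the threshold are uncertain. The smaller set of calls that held in all 9 fits (92) depended on no single library. Those fits share most libraries with the main fit, so they are not independent evidence.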
